A study of Mus musculus with 4 samples.

Results

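The chaperonins of mouse quadriceps were examined through 10 genes, the 8 subunits of the cytosolic chaperonin TRiC (Tcp1, Cct2, Cct3, Cct4, Cct5, Cct6a, Cct7 and Cct8) and the mitochondrial pair Hspd1 and Hspe1. They were taken by gene symbol, with earlier results of these data known, and each symbol matched 1 of the 51826 rows of the count table. RNA came from quadriceps of 4 sedentary male mice of about 20 weeks of age in the C57BL6/J background, and each mouse gave 1 polyA library. The study describes the genotypes as littermates, without saying which mice shared a litter. The 2 WT mice carried an intact Mef2d gene, which encodes a muscle transcription factor, and the 2 Mef2dα2 Eko mice lacked its muscle-specific α2 exon, which CRISPR-Cas9 had removed from the germline, so that the deletion was present in every tissue. The study kept 2 founder lines, and the line of the sequenced mice is not given in the sources used here. The comparison asked which muscle transcripts differed when Mef2d could not make its α2 isoform.

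Chaperonins are barrel-shaped machines that enclose an unfolded protein and use ATP to let it fold. TRiC, in the cytosol, is built of stacked rings in which each of its related subunits takes a fixed place, and actin and tubulin are its classical substrates. HSP60, the product of Hspd1, is the barrel of the mitochondrial matrix, and HSP10, the product of Hspe1, is the lid that closes it over proteins newly imported into the mitochondrion.

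Hspd1 and Hspe1 lay head to head on chromosome 1 of GRCm38 and were read in opposite directions. Hspd1 covered chr1:55077835-55088243 on the minus strand with 12 exons in its reference transcript, and Hspe1 covered chr1:55088132-55091307 on the plus strand with 4 exons. Their annotated exons overlapped by 112 bases at the 5′ ends. RefSeq places the start of Hspe1 at 55088148 and starts of Hspd1 at 55087932 and 55088243, 216 and 95 bases away. This region is shown because the barrel and the lid start from it side by side. In the window of Hspe1, chr1:55087898-55088197 on the plus strand of GRCm38.p6, of which 285 bases were also in an Hspd1 window, capitals mark the heat shock pairs and a later ATF motif.

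Hspe1 promoter: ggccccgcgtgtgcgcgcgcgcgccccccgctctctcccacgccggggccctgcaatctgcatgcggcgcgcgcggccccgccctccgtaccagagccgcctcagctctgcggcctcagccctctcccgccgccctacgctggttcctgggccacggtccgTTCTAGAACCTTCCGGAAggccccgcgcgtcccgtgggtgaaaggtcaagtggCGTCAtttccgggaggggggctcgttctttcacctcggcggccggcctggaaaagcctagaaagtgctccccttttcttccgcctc

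A heat shock pair here is either of the palindromes GAANNTTC and TTCNNGAA, which are pairs of the inverted repeats that heat shock factors bind. The window held 3 overlapping pairs within 18 bases, 89 to 72 bases before the Hspe1 start, at chr1:55088059-55088076. Of the 32851 promoter windows of the same length in RefSeq, 15.1% held a pair of either form and 84, or 0.256%, held 3 or more. Windows were available for 9 of the 10 genes, and among the TRiC subunits Cct2, Cct5 and Cct6a each had a window with a single pair. These stretches are printed to set the single pairs beside the triple one, with capitals on the pair.

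Hspe1, chr1:55088049-55088086, plus strand: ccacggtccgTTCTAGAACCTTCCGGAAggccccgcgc
Cct2, chr10:117063400-117063427, minus strand: cccaagtgaaGAAGTTTCtagcaggacc
Cct5, chr15:31601863-31601890, minus strand: cagcggccgaTTCCAGAAgctactctgc
Cct6a, chr5:129787370-129787397, plus strand: cgtaagacttTTCGAGAAgaccccgcag

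The pairs lay 42 to 35 bases before an annotated start of Cct2, 34 to 27 bases before one of Cct5 and, in Cct6a, from 24 to 31 bases after it. The 9 genes had 12 windows between them, since some have more than 1 annotated start. A GC box, GGGCGG, stood in 11 of the 12 windows against 35.7% of all windows, and CCAAT in 5 of the 12 against 37.4%. The ATF motif TGACG, which the Hspe1 window holds on its other strand, was in 3 of the 12 windows against 20.8% of all windows, and those of Hspd1 and Hspe1 hold the same site. The MEF2 consensus was in none of the 12 windows and in 0.557% of all windows. Both strands were searched for each motif, and a match describes letters in a window and not a bound site.

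**Figure D1:**
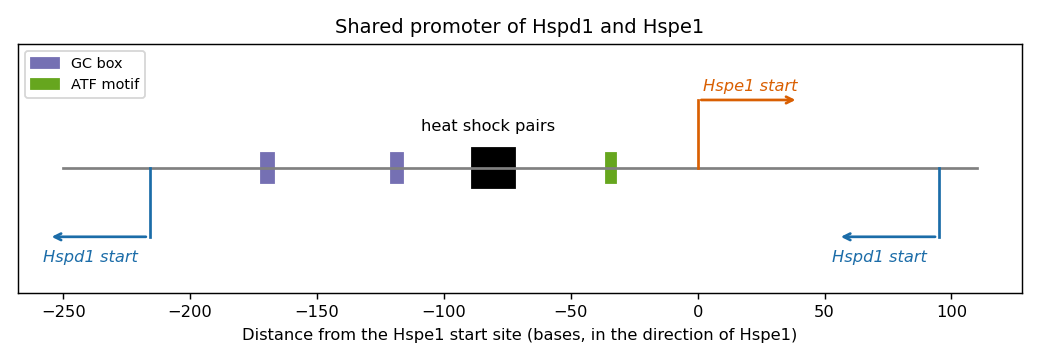
Map of the promoter that Hspd1 and Hspe1 share, by distance in bases from the Hspe1 start site. Arrows mark annotated starts and their direction, boxes mark motif matches, and the black box is the 18-base run of heat shock pairs, 89 to 72 bases before the Hspe1 start and between it and the Hspd1 start 216 bases away.

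Between the genotypes, the 8 TRiC subunits stayed close to their WT levels, while both mitochondrial chaperonin transcripts were lower in each Mef2dα2 Eko mouse than in each WT mouse. That made 2 of the 10 genes without overlap, both lower, against 23% of all genes tested that were lower in this way and 43.8% without overlap in either direction, so the count of such genes is no higher than the background. HSP10 transcript (Hspe1) in Mef2dα2 Eko mice was at 76.7% of its WT mean and HSP60 transcript (Hspd1) at 88.3%. None of the 10 genes passed an adjusted p of 0.05 in the quasi-likelihood test of edgeR, adjusted by Benjamini-Hochberg over the 16120 genes tested, of which 67 or 0.416% passed, 50 lower (0.31%) and 17 higher (0.105%). At an unadjusted p under 0.05 the test gave 1 of the 10, Hspe1, against 11.6% of all genes in either direction and 6.41% lower, and DESeq2 called the same gene after adjustment, with 325 genes or 2.02% called in all. All 10 genes passed edgeR's filter on low counts. Levels are in CPM, counts scaled to library totals after TMM normalization, and log2 fold changes set Mef2dα2 Eko against WT.

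Total expected counts lay between 72626757 and 85176059 per mouse, and the smallest level that 3 counts allow was between 0.0348 and 0.0419 CPM, for counting error only. The counts of any 2 mice differed beyond sampling noise, with a chi-square per degree of freedom of at least 38.7. Mef2d itself, whose whole-gene count does not separate the α1 and α2 exons, stood at 259 and 227 CPM in WT and 252 and 241 CPM in Mef2dα2 Eko mice. That level checks nothing of the deletion. Skeletal muscle fibre markers, 9 of 9 tested, summed to at least 135833 CPM in every mouse.

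**Figure D2:**
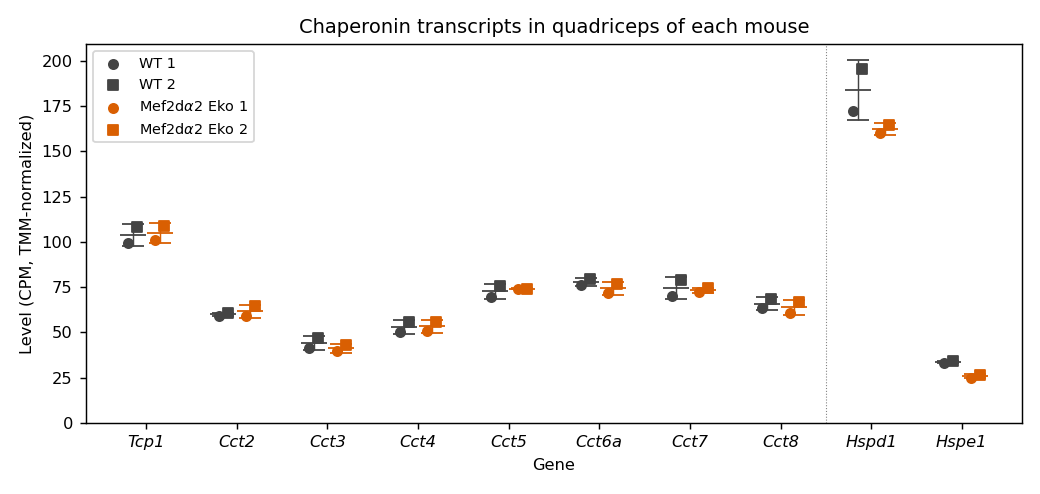
Level of each chaperonin gene in each mouse in CPM after TMM normalization, with the mean and SD of the 2 mice of a genotype as bars. For Hspd1 and Hspe1 the Mef2dα2 Eko points sit below the WT points, and for the 8 TRiC subunits the genotypes overlap.

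Hspe1, which encodes HSP10, the lid of the mitochondrial chaperonin, had 33.0 and 34.1 CPM in WT and 24.9 and 26.6 CPM in Mef2dα2 Eko muscle. The counts behind these levels were 2504 and 2758 for WT, then 2145 and 1902 for Mef2dα2 Eko. The 4 mice split by genotype, and the gap between the genotypes was wider than the spread within either. The mean was 33.6 ± 0.782 CPM in WT and 25.7 ± 1.21 CPM in Mef2dα2 Eko mice (SD, n = 2 each), a log2 fold change of -0.38 ± 0.07 (SE), with a 95% interval of -0.56 to -0.21. In edgeR the unadjusted p was 0.00128, the gene ranked 165 by p among all genes tested, and the adjusted p was 0.125. The direction held under all 17 alternative settings, and the adjusted p passed 0.05 in 4 of them. It was 0.0168 in DESeq2, 0.0179 in edgeR's likelihood ratio test, which called 1.94% of all genes, and 0.00211 with no filter on low counts, where 3.25% were called.

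Hspd1, which encodes HSP60, the barrel itself, had 172 and 196 CPM in WT and 160 and 165 CPM in Mef2dα2 Eko muscle. Each Mef2dα2 Eko mouse was below each WT mouse, but WT replicate 1 stood nearer to the Mef2dα2 Eko mice than to the other WT mouse. The mean was 184 ± 16.6 CPM in WT and 162 ± 3.22 CPM in Mef2dα2 Eko mice (SD, n = 2 each). The log2 fold change was -0.18 ± 0.08 (SE) with a 95% interval of -0.37 to 0.01, and edgeR's p was 0.0600 before and 0.455 after adjustment. Without WT replicate 2, the highest mouse, the log2 fold change was -0.07.

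The lid was measured against its barrel within each mouse, which takes out the scaling of the library. For every 100 Hspd1 counts WT mice had 19.2 and 17.4 Hspe1 counts, and Mef2dα2 Eko mice had 15.6 and 16.2. The ratio was lower in both Mef2dα2 Eko mice than in either WT mouse, with means of 18.3 ± 1.23 and 15.9 ± 0.432 (SD, n = 2 each). An exact two-sided permutation test gave p = 0.333, the smallest that 2 mice against 2 can give. Per kilobase of transcript, the lid stood at 0.600 and 0.546 of the level of the barrel in WT and at 0.487 and 0.506 in Mef2dα2 Eko mice.

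Near-identical copies bear on both counts, since RSEM divides reads that fit several genes among them. Hspd1-ps3, a processed pseudogene at chr11:41498737-41500458, matched the Hspd1 transcript over 1722 bases at 99.0% identity and was given 2693 and 3079 counts for WT, then 2726 and 2377 for Mef2dα2 Eko. It took 17.1% and 16.3% of the sum with Hspd1 in WT mice and 16.5% and 16.8% in Mef2dα2 Eko mice, so the genotypes overlapped in how the reads were divided (exact permutation p = 1). The pseudogene's own log2 fold change was -0.18, and Hspd1 summed with it, an alternative chosen after the data were seen, gave -0.18 with an edgeR adjusted p of 0.447. Of 4 genes similar to Hspe1, 3 had between 0 and 2 counts in a mouse. The other, AC117239.2, is annotated as protein coding and matched the Hspe1 transcript over 515 bases at 99.0% identity. No counts were listed for it, so where reads that fit it were counted is not known. Without a stated strand setting for the counting, reads in the 112 bases that Hspd1 and Hspe1 share cannot be told apart.

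Markers of other cells in the muscle were followed in the same libraries, and none passed edgeR's test. Of all genes tested, 23% were lower and 20.8% higher in both Mef2dα2 Eko mice, and the marker counts stand beside these shares. The summed level of 7 adipocyte markers was 100 to 168 CPM in WT and 71.7 to 95.3 CPM in Mef2dα2 Eko mice, with 2 of the 7 lower in both Mef2dα2 Eko mice and the highest sum in WT replicate 1. Macrophage markers summed to 25.4 to 31.5 CPM and 16.2 to 22.9 CPM, with 4 of 6 lower. Fibroblast markers also had 4 of 6 lower, with a median log2 fold change of -0.21, while their sums of 338 to 349 CPM in WT and 292 to 372 CPM in Mef2dα2 Eko mice overlapped. Satellite cell markers summed to 22.9 to 24.5 CPM in WT and 25.3 to 26.1 CPM in Mef2dα2 Eko mice, and Schwann cell markers to 40.3 to 42.7 CPM and 44.5 to 53.7 CPM, with 3 of 5 and 3 of 6 higher. Muscle fibre, endothelial, erythroid and smooth muscle sums overlapped between the genotypes, and no marker was at 0 in all mice. The part of these cells in the levels of Hspe1 and Hspd1 was not tested, and in bulk RNA fewer cells of a type and less RNA per cell cannot be told apart.

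**Figure D3:**
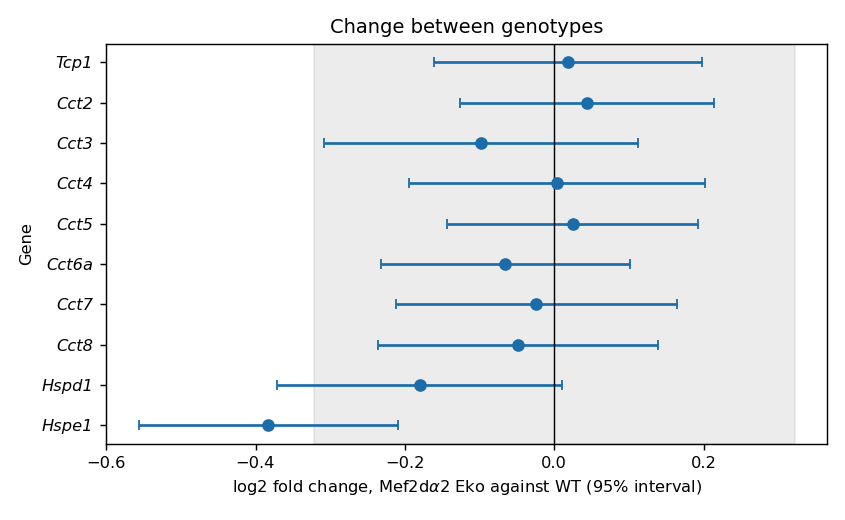
Log2 fold change of each chaperonin gene, Mef2dα2 Eko against WT, as points with the 95% interval from edgeR's fit, and a grey band at 1.25-fold in either direction. The intervals of all 8 TRiC subunits lie inside the band, whereas that of Hspe1, -0.56 to -0.21, lies below 0 and reaches outside it.

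TRiC transcripts were close to level between the genotypes. The 8 log2 fold changes ran from -0.10 to 0.04 with a median of -0.01, which was also the median of all genes tested, and 4 were below 0 and 4 above. For all 8 the genotypes overlapped, whereas 43.8% of all genes did not overlap in either direction. The 95% intervals of the fold change ran from 0.808 to 1.16 over the 8 subunits, all within 1.25-fold in both directions, which was true of 27% of all genes. Adjusted p-values in edgeR ran from 0.718 to 0.992. A miss of the threshold does not show equal levels, and these intervals give the changes that the data allow.

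Tcp1, at chr17:12915701-12925067, encodes CCT1, the founding subunit after which the complex is also named. It had 99.5 and 108 CPM in WT and 101 and 109 CPM in Mef2dα2 Eko mice, the highest TRiC level in each mouse. The ranges of the genotypes nearly coincided, and the log2 fold change was 0.02 ± 0.08 (SE).

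Cct4 and Cct5 encode CCT4 and CCT5, subunits that are known to bind ATP strongly. Cct4, at chr11:22990519-23003780, had 50.4 and 55.7 CPM in WT and 50.8 and 55.7 CPM in Mef2dα2 Eko mice. Cct5, at chr15:31590800-31601804, had 69.7 and 75.7 CPM in WT and 73.8 and 74.2 CPM in Mef2dα2 Eko mice. For Cct4 each genotype had a low and a high mouse at almost the same levels, and for Cct5 both Mef2dα2 Eko mice fell between the WT mice. Their log2 fold changes were 0.00 ± 0.08 and 0.02 ± 0.07 (SE).

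Cct2 and Cct7 encode CCT2 and CCT7, further subunits with a fixed place in each ring. Cct2, at chr10:117051001-117063814, had 59.2 and 60.6 CPM in WT and 59.2 and 64.3 CPM in Mef2dα2 Eko mice, with the highest level in Mef2dα2 Eko replicate 2. Cct7, at chr6:85451514-85468475, had 69.9 and 78.8 CPM in WT and 72.0 and 74.3 CPM in Mef2dα2 Eko mice, again between the WT mice. The log2 fold change of Cct2, 0.04 ± 0.07 (SE), was the highest of the 8, and that of Cct7 was -0.02 ± 0.08 (SE).

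Cct3, Cct6a and Cct8 encode CCT3, CCT6 and CCT8, which are known to bind ATP weakly. Cct3, at chr3:88297116-88321767, had 41.4 and 47.0 CPM in WT and 39.5 and 43.1 CPM in Mef2dα2 Eko mice. Cct6a, at chr5:129786998-129846371, had 76.2 and 79.3 CPM in WT and 71.8 and 76.9 CPM in Mef2dα2 Eko mice. Cct8, at chr16:87483326-87495873, had 63.2 and 68.5 CPM in WT and 60.8 and 66.6 CPM in Mef2dα2 Eko mice. For each of the 3 the lowest mouse was Mef2dα2 Eko replicate 1 and the highest was WT replicate 2, with the other mice between them. The log2 fold changes were -0.10 ± 0.09, -0.07 ± 0.07 and -0.05 ± 0.08 (SE), and the adjusted p of Cct3, 0.718, was the lowest of the 8. Cct6b, a relative of Cct6a known from testis, had 3 to 8 counts in a mouse and was not tested.

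The subunits shared a pattern among the mice that did not follow genotype. WT replicate 1 and Mef2dα2 Eko replicate 1 were the lower mouse of their genotype for each of the 8 genes. Averaged over the subunits and centred on the mean of the 4 mice, the log2 level of the WT mice was -0.05 and 0.07, and that of the Mef2dα2 Eko mice -0.06 and 0.04. The summed TRiC level was 530 and 574 CPM in WT and 529 and 564 CPM in Mef2dα2 Eko mice, or 552 ± 31.1 and 546 ± 24.5 CPM (SD, n = 2 each, exact two-sided permutation p = 0.667). The direction of so small a difference turned with single mice, and the median log2 fold change of the 8 was 0.08 without WT replicate 2 and -0.08 without WT replicate 1. Cct6a was the sole subunit whose log2 fold change kept its sign under all 17 alternatives.

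The make-up of the TRiC transcript pool was steady from mouse to mouse. Tcp1 took between 18.8% and 19.3% of all TRiC counts and Cct3 between 7.47% and 8.19%, and no subunit's share of counts moved by more than 0.836 percentage points over the 4 mice. Since counts rise with transcript length, the shares were also taken per kilobase of each reference transcript. On that scale they ran from 8.47% to 17.7%, around the 12.5% that equal transcript levels would give. The highest share, that of Tcp1, was 1.99 times the lowest, that of Cct4, in WT mice.

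**Figure D4:**
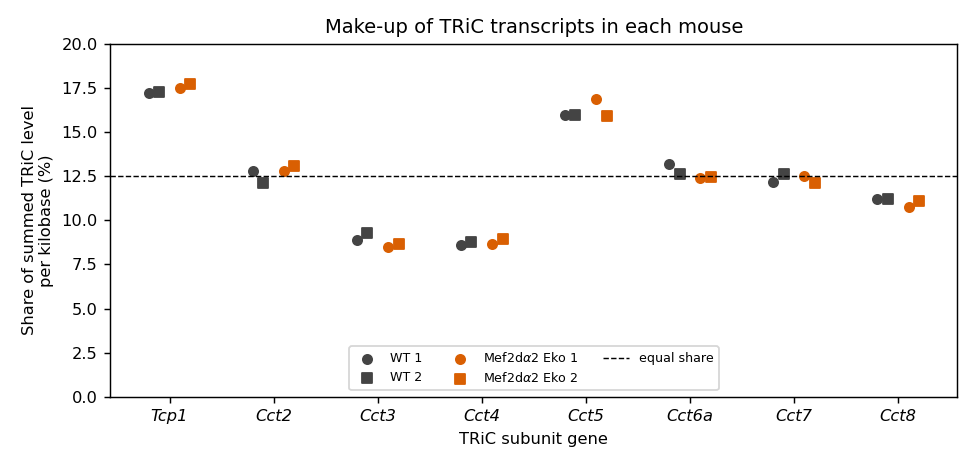
Share of the summed TRiC level per kilobase that each subunit gene took in each mouse, in percent, with a dashed line at the equal share of 12.5%. Tcp1 and Cct5 lie above the line and Cct3, Cct4 and Cct8 below it in all 4 mice, and the mice differ little within a gene.

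Per kilobase, Hspd1 was the most abundant of the 10 transcripts in WT mice, at 75.9 CPM per kilobase, and all 4 mice were above the highest level of any other chaperonin gene. Hspe1 followed at 43.3, Tcp1 at 42.4 and Cct5 at 39.2 CPM per kilobase. Cct6a, Cct2 and Cct7 came next at 31.7, 30.6 and 30.5 CPM per kilobase, then Cct8 at 27.5, Cct3 at 22.4 and Cct4 at 21.4. The ranges over the 4 mice overlapped between Hspe1 and Tcp1, Tcp1 and Cct5, Cct6a and Cct2, Cct2 and Cct7, and Cct3 and Cct4. Within each mouse Tcp1 stood above Cct5, while the order of the other neighbours named changed from mouse to mouse. In Mef2dα2 Eko mice Hspe1 stood at 32.1 and 34.4 CPM per kilobase, under both Tcp1 and Cct5. The order depends on the length used, since with all annotated exons joined Hspd1 stayed first and Tcp1 moved from place 3 to place 7.

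Reads from a neighbour on the other strand could enter some TRiC counts if strand was not used. Exons of Tcp1 overlapped those of Acat3 by 571 bases and Mrpl18 by 141 bases, those of Cct6a overlapped Psph by 452, those of Cct7 overlapped Pradc1 by 214 and those of Cct8 overlapped Usp16 by 192. Cct2, Cct4 and Cct5 had no overlapping gene and no similar copy in the annotation. The log2 fold changes of those 3 genes were 0.04, 0.00 and 0.02.

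The helpers and substrates of the chaperonins were followed in 14 lists of 105 genes, of which 100 were tested. Of these, 1 passed edgeR's adjusted p of 0.05, or 1 in 100 against the 0.416% of all genes, and it was lower in Mef2dα2 Eko mice. The levels of the Mef2dα2 Eko mice lay wholly below WT for 39 of the 100 and wholly above for 7, against 23% and 20.8% of all genes. The gene that passed was Dnaja4, with 93.2 and 92.7 CPM in WT and 63.7 and 58.1 CPM in Mef2dα2 Eko mice, so that its log2 fold change was -0.61 ± 0.07 (SE) at an adjusted p of 0.0424. Dnaja4 encodes a J protein that works with cytosolic Hsp70, although it stood here in the list of the mitochondrial Hsp70 system. It no longer passed with library totals as the sole scaling or with a filter of 1 CPM in 2 libraries.

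Tubulins are substrates of TRiC, and all 13 tested had log2 fold changes below 0, with a median of -0.23, although none passed the threshold. Tubb4b, a broadly expressed beta-tubulin, had 173 and 146 CPM in WT and 126 and 127 CPM in Mef2dα2 Eko mice, and Tuba1b, an alpha-tubulin, had 27.9 and 24.7 CPM and 20.2 and 22.8 CPM. Both genes were lower in both Mef2dα2 Eko mice, with log2 fold changes of -0.33 and -0.29 and edgeR adjusted p-values of 0.257 and 0.329. Tuba4a and Tuba8, the most abundant tubulins in these libraries, overlapped between the genotypes at -0.14 and -0.04. In all, 9 of the 13 were lower in both Mef2dα2 Eko mice, against 23% of all genes, and 4 had an unadjusted p under 0.05, against 6.41% of all genes in that direction. Over 15636 tested genes, transcripts richer in GC tended to lower log2 fold changes (Spearman correlation -0.216). The part of GC content in the tubulin values and in the counts of the lists was not tested.

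Actins, the other classical substrates, went both ways and none of the 5 tested passed. Acta1, the main actin of adult skeletal muscle, had a log2 fold change of -0.14 with an edgeR adjusted p of 0.574, and the cytoplasmic actin Actb had -0.10. Acta1 and Actb were lower in both Mef2dα2 Eko mice than in either WT mouse. That made 2 of the 5 lower and 1 higher without overlap, against 23% and 20.8% of all genes. Actg1, the other cytoplasmic actin, had 153 and 130 CPM in WT and 134 and 94.3 CPM in Mef2dα2 Eko mice, which overlapped, and its log2 fold change was -0.32 with an adjusted p of 0.510. Actc1, the cardiac actin also expressed in developing and regenerating muscle, had 96.7 and 55.9 CPM in WT and 150 and 163 CPM in Mef2dα2 Eko mice, both above WT, with a log2 difference of 1.04 at an adjusted p of 0.172. Among 12 other TRiC substrates tested, the median was -0.01 and none passed. Their lowest p-values were those of Fzr1, an activator of the anaphase-promoting complex, at -0.23 on the log2 scale, and of the transcription factor gene Stat3, at 0.17.

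Prefoldin hands unfolded actin and tubulin to TRiC, and its 6 subunit genes had a median log2 fold change of -0.04, with none past the threshold. Vbp1 was at 0.14, Pfdn2 at -0.08 and Pfdn5 at -0.06. In the prefoldin-like and R2TP group, 7 tested, Uri1 had 30.9 and 32.2 CPM in WT and 42.4 and 37.9 CPM in Mef2dα2 Eko mice, higher in both, with a log2 fold change of 0.35 and an edgeR adjusted p of 0.197. The phosducin-like cofactors (3 tested), the tubulin cofactors that assemble tubulin dimers after TRiC (6 tested) and the chaperonin-like proteins of the Bardet-Biedl syndrome group (3 tested) had medians of 0.04, 0.07 and -0.02, and none passed.

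The other chaperones and proteases of the mitochondrion, which share the folding and clearing of imported proteins with HSP60, were read from the same fit, and their differences from Hspe1 were not tested. Hspa9, the mitochondrial Hsp70 that passes imported proteins on to HSP60, had 365 and 350 CPM in WT and 336 and 349 CPM in Mef2dα2 Eko mice, with a log2 fold change of -0.06. Phb, a scaffold protein of the inner membrane, was lower in both Mef2dα2 Eko mice at -0.18, with an edgeR adjusted p of 0.345. None of the 12 mitochondrial proteases and other chaperones passed, and their median was -0.04. The 10 genes of mitochondrial content had a median of -0.05, from -0.15 for Vdac2 to 0.12, and none passed.

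Regulators of heat shock genes and of the mitochondrial unfolded protein response, both of which are known to include Hspd1 and Hspe1, were tested as well. Hsf1, the main heat shock transcription factor, had 32.3 and 31.9 CPM in WT and 26.9 and 27.7 CPM in Mef2dα2 Eko mice, lower in both, with a log2 fold change of -0.23 and an edgeR adjusted p of 0.283. Atf5, a factor of the mitochondrial unfolded protein response, had 40.4 and 37.2 CPM in WT and 33.5 and 29.6 CPM in Mef2dα2 Eko mice, also lower in both, at -0.30 with an adjusted p of 0.286. Atf4, which works beside it, overlapped at -0.07. None of the 4 heat shock factor genes and of the 6 regulators of the mitochondrial unfolded protein response passed. In the myosin chaperone list, Hsp90aa1, a heat-inducible Hsp90 that helps myosin fold, had 65.5 and 126 CPM in WT and 43.6 and 53.1 CPM in Mef2dα2 Eko mice, at -0.99 on the log2 scale with an adjusted p of 0.262 and a wide spread between the WT mice.

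**Figure D5:**
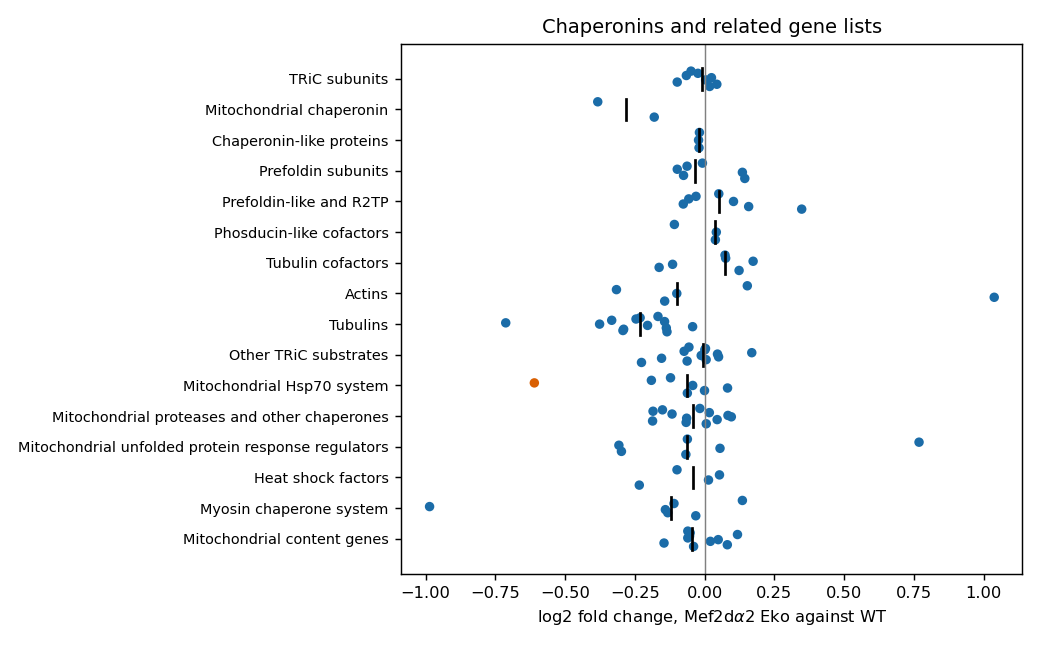
Log2 fold change of each gene tested, Mef2dα2 Eko against WT, for the chaperonins and 14 related lists, with a black bar at each list's median and orange for an adjusted p below 0.05 in edgeR. The TRiC subunits cluster at 0, all 13 tubulins lie below 0, and Dnaja4 at -0.61 is the sole orange point.

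The genes whose levels over the 4 mice were most like those of the chaperonins were picked by the root mean square distance between centred log2 CPM profiles, among 6565 genes with a mean of at least 10 CPM. For the mean profile of the TRiC subunits these were Plaa, a ubiquitin-binding protein, at 0.0032, the zinc finger gene Zfp706 at 0.0045 and the translation initiation factor gene Eif4h at 0.0056. For the mean profile of Hspd1 and Hspe1 they were Ftl1, the ferritin light chain, at 0.0059, the transcription factor gene Maz at 0.012 and P4ha2, a collagen prolyl hydroxylase subunit, at 0.017. Ftl1 had 114 and 125 CPM in WT and 95.7 and 101 CPM in Mef2dα2 Eko mice, and its edgeR adjusted p was 0.238. With 4 mice many genes share a profile by their order alone, so these distances describe likeness over these libraries and nothing further.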

How the data were processed

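Poly-A libraries were made with a stranded kit from RNA of separate mice, so p-values measure the spread between these mice. The authors aligned reads to mm10 (GRCm38), estimated expected counts per gene with RSEM and the Ensembl annotation, and deposited the expected counts without normalization. The submitters' processing notes name STAR 2.6.1a. The strand setting is not given in the sources used here. All values were whole (0 were not), so rounding changed none.

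The genotypes were compared in R 4.3.3 with edgeR 4.0.16 (TMM, default filter on low counts, quasi-likelihood test, genotype as the sole term, Benjamini-Hochberg adjustment, threshold 0.05) over 16120 of the 24621 genes with any count. The main test was edgeR in place of the DESeq2 of the authors. Standard errors and intervals came from the fold change and the F statistic. A prior count of 0.125 was used.

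Gene positions and transcript lengths were taken from a GENCODE annotation of GRCm38, and promoter windows from RefSeq on GRCm38.p6. Similar genes matched at least 150 bases at 90% identity or more. Alternatives were DESeq2 1.42.0 with and without independent filtering, the likelihood ratio test, limma-voom (limma 3.58.1), other scalings and filters, a replicate block, a per-library GC correction, leaving out each mouse and, chosen after the data were seen, Hspd1 summed with its pseudogene. The scripts were tested on simulated data.

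The 10 genes and all lists were chosen with earlier results of these data known. Besides them, names were limited to genes past the threshold, the 2 most abundant and the 2 with the lowest p of each list, not all of which are printed, and the 3 most alike in profile. Overlapping or similar genes were named for their position.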

Additional observations from a re-analysis of the deposited data

How the results depend on the processing

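Of 170 values of the 10 genes over 17 alternatives, 148 kept their direction and their side of the threshold, 4 newly passed it and 18 changed sign, all 18 in TRiC subunits with log2 fold changes near 0. The number of the 10 that passed was 1, Hspe1, with DESeq2 with (adjusted p = 0.0168) and without (0.0210) independent filtering, with edgeR's likelihood ratio test (0.0179) and with no filter on low counts (0.00211), and 0 otherwise, where its adjusted p ran from 0.0517 to 0.268. Leaving out a mouse gave Hspe1 -0.43 to -0.32 and Hspd1 -0.27 to -0.07. The median of the TRiC subunits ran from -0.079 to 0.077 and the mean of Hspd1 and Hspe1 from -0.34 to -0.21, both with the highest value without WT replicate 2. Members whose genotypes did not overlap numbered 2 in the main fit and 5 to 7 with a mouse left out. With the GC correction they numbered 4 (Cct6a and Cct8 lower, beside Hspd1 and Hspe1). A gap between genotypes comes about more easily with 1 mouse against 2. The share of all genes without overlap was not taken under these settings, so no change in the members is read from these counts.

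The sign changed for Cct4 with library totals only (-0.0019), with the GC correction for Tcp1 (-0.0064), Cct4 (-0.042) and Cct7 (0.0071), and with the replicate block and GC correction for the same genes (-0.0060, -0.042 and 0.0095). Leaving out a mouse gave -0.039 to 0.093 for Tcp1, -0.016 to 0.12 for Cct2, -0.19 to 0.012 for Cct3, -0.066 to 0.093 for Cct4, -0.032 to 0.10 for Cct5, -0.11 to 0.079 for Cct7 and -0.12 to 0.030 for Cct8. Genes of the related lists that passed numbered 2 with DESeq2 in both forms, 3 with the likelihood ratio test, 8 with no filter on low counts, 0 with library totals only and 0 with at least 1 CPM in 2 libraries, and 2 to 3 with a mouse left out, against 1. The cause of these changes was not tested.

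With the replicate number as a block, Hspe1 had an adjusted p of 0.0631, or 0.0517 with the GC correction as well, 0 of the 10 genes passed, and 3 genes of the related lists did in both fits (Actc1, Dnaja4 and Hsp90aa1). The block changed no call among the 10. The study describes littermates, but no source used here ties a replicate number to a litter. Over the genes tested, the deviations of the replicate 1 mice from their genotype means had a correlation of 0.162. With 2 mice per genotype the replicate 2 mice give the same value by construction. The mice were not treated as paired.

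Over all genes, against 67, the number that passed was 325 and 309 with DESeq2 with and without independent filtering, 312 with the likelihood ratio test, 799 of 24621 with no filter, 23 with at least 1 CPM in 2 libraries, 35 with library totals only, 41 with the GC correction, 186 with the block, 249 with both, and 99 to 299 with a mouse left out. The 10 genes had at least 1902 counts in each mouse, and 2 mice per genotype measure their spread poorly.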
